A study of Mus musculus with 23 samples.

Results

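Complex IV, or cytochrome *c* oxidase, is the last enzyme of the respiratory chain. Its catalytic core is encoded by mitochondrial DNA, and nuclear-encoded assembly factors are needed to insert that core into the inner membrane and to load it with copper and haem *a*. Copper is passed from chaperone to chaperone in the intermembrane space, haem *a* is made from haem *b* in consecutive enzymatic steps, and loss of single assembly factors causes complex IV deficiency. The genes described here are 10 such factors, *Cox10*, *Cox11*, *Cox15*, *Cox16*, *Cox17*, *Cox18*, *Cox19*, *Sco1*, *Sco2* and *Surf1*, chosen by name from the 37310 genes of the GENCODE annotation of the mm9 mouse genome. Their mRNA was followed by RNA-seq after loss of the transcription factor Zbtb11, and their promoters were examined for Zbtb11 ChIP-seq peaks.

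The genes fall into 3 roles. The copper chaperones are *Cox17* (ENSMUSG00000046516.9, chr16:38347077-38362383, plus strand), *Sco1* (ENSMUSG00000069844.6, chr11:66866172-66880572, plus), *Sco2* (ENSMUSG00000091780.1, chr15:89202113-89202880, minus), *Cox11* (ENSMUSG00000020544.8, chr11:90499487-90506245, plus) and *Cox19* (ENSMUSG00000045438.6, chr5:139812143-139821187, minus). Haem *a* is made and placed by the products of *Cox10* (ENSMUSG00000042148.8, chr11:63776129-63892970, minus), *Cox15* (ENSMUSG00000040018.8, chr19:43807744-43827490, minus) and *Surf1* (ENSMUSG00000015790.7, chr2:26768903-26772050, minus). *Cox16* (ENSMUSG00000091803.1, chr12:82460013-82586114, minus) and *Cox18* (ENSMUSG00000035505.8, chr5:90643749-90653026, minus) serve the membrane insertion and maturation of the subunit encoded by *mt-Co2*.

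All cells were derivatives of the E14 line of mouse embryonic stem cells (ESCs), grown without feeder cells. The EtOH control and the *Zbtb11* KO were the same *Zbtb11*lox/lox cells, which carry ERt2-Cre at *Rosa26*, treated for 48 h with the carrier ethanol or with 250 nM 4-hydroxytamoxifen (4OHT). Activated Cre removes *Zbtb11* exon 3, and the line was grown from single-cell clones. The 4OHT control was *Zbtb11*WT/WT cells with an unmodified *Rosa26* locus, given the same dose of 4OHT for the same time. It therefore differs from the EtOH control in both line and treatment, and from the *Zbtb11* KO in line and *Zbtb11* genotype, and these cannot be told apart. The *Zbtb11* KO differs from the EtOH control in 4OHT and Cre activity as well as in *Zbtb11*, and these cannot be told apart either. Each of the 3 groups had 3 biological replicates. ChIP-seq was performed with an antibody to Zbtb11 in 4 replicates of *Zbtb11*WT/WT cells, and with an antibody to FLAG in 3 replicates of *Zbtb11*FLAG/FLAG cells and in 2 replicates of untagged control cells.

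The RNA-seq libraries held between 14301457 and 23876604 reads on genes. *Zbtb11* itself is not among the annotated genes, so the deletion could not be followed in these counts. The summed level of 8 ESC markers was 4081 to 5275 CPM (reads on the gene as a share of the library's gene reads) over the 9 libraries. That of 11 markers of fibroblasts and differentiated cells was 58.1 to 75.8 CPM. These sums were not scaled by TMM, whereas the CPM of single genes below were. Replicate 1 stood apart from replicates 2 and 3 in every group. It lay below both others in all 3 groups for 3 of the 9 assembly factors tested, *Cox10*, *Cox19* and *Sco1*, as for 29.4% of all 14346 tested genes, and above both for *Cox18*, as for 30.0% of tested genes. In such bulk samples a smaller number of cells and less RNA per cell cannot be told apart.

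Zbtb11 peaks lay at the promoters of most of these genes. Promoters were taken from 2 kb upstream to 500 bases downstream of the annotated start, and the high-confidence set was the authors' table of 7500 peaks found with both the Zbtb11 and the FLAG antibody. Of the 10 assembly factors, 6 had a high-confidence peak, *Cox10*, *Cox15*, *Cox16*, *Cox17*, *Cox18* and *Sco1*, against 28.1% of all tested genes. Each of these 6 peaks spanned the start of the gene, with its centre 14 to 221 bases from it.

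The remaining members differed in what they showed. In both full lists of peaks 8 of the 10 had a promoter peak, against 29.7% of tested genes. These were the 6 genes above and, with no peak in the coverage table, *Surf1* and *Sco2*. The *Surf1* peaks spanned the start, whereas those of *Sco2* ended 630 and 672 bases upstream of it. *Cox19* had a peak with the Zbtb11 antibody alone, and *Cox11* had none in any list. The FLAG control list, the background for the FLAG ChIP, held no peak at any of the 10 promoters. The paper removed peaks shared with this control from its FLAG-Zbtb11 set, so at FLAG-Zbtb11 peaks this absence was largely set in advance. The share of all tested genes with such a control peak was not counted.

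**Figure D1:**
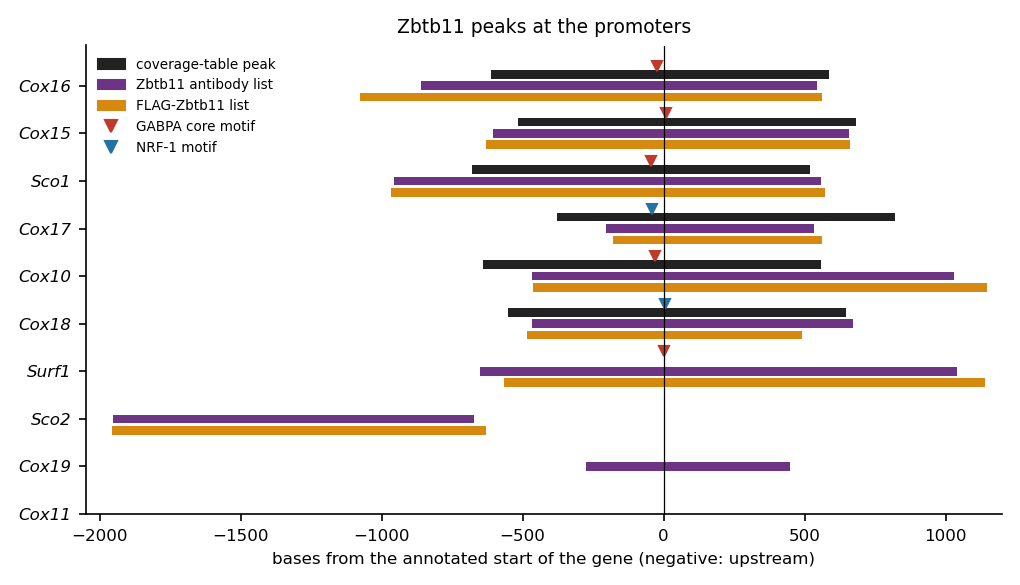
Extent of the Zbtb11 peaks around the start of each assembly factor, in bases from the annotated start (negative values are upstream). Black bars are coverage-table peaks, purple bars the Zbtb11 antibody list and orange bars the FLAG-Zbtb11 list, and triangles mark matches to the GABPA core (red) or NRF-1 motif (blue). Peaks lie over the start of 8 genes, upstream of the *Sco2* start, and nowhere at *Cox11*.

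The sequences below the peaks are shown because exact matches to the motifs searched fell at different genes. GABPA (part of NRF-2) and NRF-1 are transcription factors known to activate many nuclear genes for respiratory chain components. The core of the GABPA motif, CCGGAAG, and the NRF-1 motif, GCGCA then any base then GCGC, were searched on both strands from 250 bases upstream to 50 bases into each gene. Only exact matches were counted, so variant sites were missed. The GABPA core was found in 15.7% of such windows over all tested genes, in 33.8% of those with a high-confidence promoter peak and in 8.60% of those without. It occurred once each at *Cox10*, *Cox15*, *Cox16*, *Sco1* and *Surf1*. The following stretches of 30 bases (mm9, 5′ to 3′ on the strand of the gene) carry the match in capitals, which read CTTCCGG where the core is on the other strand.
Cox16, chr12:82586121-82586150, minus strand: agaagcctcgaCTTCCGGgggagggaggaa
Cox15, chr19:43827465-43827494, minus strand: cgacgcctgacCCGGAAGtgcttgttcttt
Sco1, chr11:66866116-66866145, plus strand: gcctccttcggCTTCCGGcagaagcggaag
Cox10, chr11:63892983-63893012, minus strand: agcgctgggagCCGGAAGtgacaagaggaa
Surf1, chr2:26772030-26772059, minus strand: ctggccctactCTTCCGGtcacggttctct
The match lay 8 bases from the centre of the high-confidence peak at *Cox16*, 14 bases at *Cox10*, 39 bases at *Sco1* and 72 bases at *Cox15*. The search covered only bases near the start and these peaks centre near it, so short distances follow largely from the search. Distances at other genes were not measured.

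The NRF-1 motif was found at *Cox17* and *Cox18* and at no other assembly factor, against 9.0% of all tested genes and 10.6% of those with a high-confidence promoter peak. No window held both motifs. In *Cox17* the match was 258 bases from the centre of the peak and in *Cox18* it was 40 bases away, a little inside the first exon. The *Cox18* match is the same on both strands.
Cox17, chr16:38347026-38347055, plus strand: cacttcttttGCGCACGCGCttcttagact
Cox18, chr5:90653004-90653033, minus strand: cctcgggttcGCGCATGCGCgcaacctcct
For *Cox16*, which had the strongest peak in the coverage table, the 200 bases before the start (chr12:82586115-82586314, minus strand) are given in full, with the GABPA core match in capitals. No exon of another gene is annotated in this stretch.
Cox16 upstream: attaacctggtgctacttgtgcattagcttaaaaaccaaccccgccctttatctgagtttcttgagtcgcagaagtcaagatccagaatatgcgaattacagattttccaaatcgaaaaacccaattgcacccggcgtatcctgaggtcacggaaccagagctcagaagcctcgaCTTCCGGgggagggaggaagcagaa
*Cox11*, *Cox19* and *Sco2* held no exact match to either motif in these windows.

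Coverage of the 6 high-confidence peaks varied widely between genes. *Cox16*, which helps to join the copper-loaded subunit encoded by *mt-Co2* to the rest of the core, had the highest. Its normalised coverage in the 4 Zbtb11 libraries was 440, 604, 454 and 678, a mean of 544 ± 116 (SD, n = 4). In the 3 FLAG-Zbtb11 libraries it was 412, 455 and 284. The peak ranked 433rd of the 7500 by its mean with the Zbtb11 antibody and 540th by its FLAG-Zbtb11 mean. All 4 Zbtb11 libraries were above 309, the limit beyond which the paper's definition calls a peak Zbtb11-high (exceeding the upper quartile by more than 1.5 interquartile ranges). *Cox16* was the only one of the 10 with such a peak, which 5.69% of tested genes had.

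*Cox15*, haem *a* synthase, and *Sco1*, a copper chaperone for the same subunit, followed. The *Cox15* peak had a coverage of 222, 229, 197 and 282 in the Zbtb11 libraries (mean 233 ± 35.8) and the *Sco1* peak one of 170, 162, 175 and 170 (mean 169 ± 5.43). Both were above the median of 71.3 over all peaks in every library, and they ranked 1176th and 1615th. Their FLAG-Zbtb11 means were 231 ± 17.9 and 191 ± 20.3 (SD, n = 3).

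The remaining peaks were closer to the median. *Cox17*, the chaperone that hands copper to Sco1 and Cox11, had a coverage of 134, 99.4, 122 and 110 with the Zbtb11 antibody but of 69.7, 71.6 and 73.5 with FLAG. *Cox10*, which makes the farnesylated precursor of haem *a*, had 77.8, 56.1, 50.9 and 28.4 with the Zbtb11 antibody, the widest relative spread of the 6. *Cox18*, needed to translocate part of the *mt-Co2* product across the inner membrane, had 40.0, 36.9, 59.3 and 40.8, below the median in each library, and 69.7, 86.3 and 65.1 with FLAG. The 2 ChIPs thus gave ranges that did not overlap for *Cox17* and *Cox18*, in opposite directions, and this difference was not tested. The share of all peaks without overlap was not counted. The antibodies were used in different lines, so antibody and line cannot be told apart. The coverage values were whole multiples of a smallest step in each library, and in the Zbtb11 libraries a member peak held between 16 and 750 such steps.

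**Figure D2:**
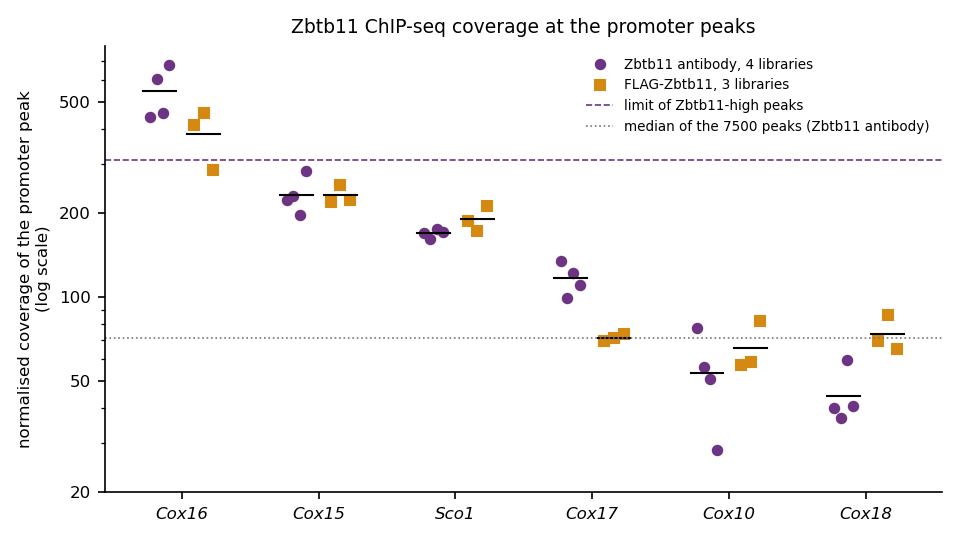
Normalised ChIP-seq coverage (log axis) of the high-confidence promoter peak of 6 assembly factors. Points are libraries, black lines are means, the dashed line is the Zbtb11-high limit (309) and the dotted line is the median of all peaks (71.3), both for the Zbtb11 antibody. Only *Cox16* lies above the limit in all 4 Zbtb11 libraries, and *Cox18* lies below the median with that antibody.

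Several of these promoters are shared. A gene on the opposite strand starts 16 bases from *Cox10* (the non-coding RNA *2810001G20Rik*), 89 bases from *Cox11* (*Stxbp4*), 4 bases from *Cox15* (*Cutc*), 76 bases from *Sco1* (*2310004I24Rik*) and 163 bases from *Surf1* (*Surf2*). The peaks at *Cox10*, *Cox15*, *Sco1* and *Surf1* therefore cover both starts. None of these 5 partners was differentially expressed (DE, adjusted p under 0.05) in *Zbtb11* KO cells, with log2 fold changes between -0.16 (*2310004I24Rik*) and 0.38 (*2810001G20Rik*, standard error 0.58) relative to the EtOH control.

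The counts bear on these genes to different degrees. Of the 10, 9 passed the filter of more than 1 CPM in at least 3 libraries. *Sco2*, the close relative of *Sco1*, had 0 reads in all 9 libraries. All 768 bases of its exon lie under exons of *Ncaph2* on the other strand. Of 31 protein-coding genes whose exons are covered entirely in this way, 31 had no read in any library, against 14.5% of the 22349 others, so *Sco2* was not measurable here and nothing is read from its 0. For genes whose reads can be counted, a count of 0 allows up to 3 reads by counting error alone. This is 0.126 to 0.210 CPM in these libraries and sets no limit for *Sco2*. *Cox11* shares 688 of its 1423 exon bases with *Tom1l1* on the other strand, and *Cox16* shares 2152 of 3751 with *Synj2bp* on the same strand. The values of these 2 genes rest on part of their length. Smaller parts are shared with other genes in *Cox15* (449 of 4909 bases), *Surf1* (137 of 1724), *Cox17* (89 of 5972) and *Cox10* (49 of 3037). The *Cox16* counts, 50 to 120 reads per library, were the lowest of the 9. Stretches of at least 100 bases with a copy of at least 95% identity elsewhere in mm9 made up 1.89% of the *Cox17* exons and 4.51% of the *Sco1* exons, and 0 bases of the other 8 genes.

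Levels were compared between genes as CPM per kb of exon, over the 9 libraries. *Cox18* had the highest mean, 16.6 CPM per kb, followed by *Cox10* with 14.6, *Sco1* with 13.3, *Cox15* with 11.5, *Surf1* with 9.14 and *Cox11* with 8.66. *Cox17* had 5.08, *Cox19* 3.13 and *Cox16* 1.08 CPM per kb. From *Cox18* to *Cox11* each gene overlapped the next in its range over the libraries, so this part of the order is not firm. Per kb of all exons, *Cox17*, *Cox19* and *Cox16* were each separated from the gene above without overlap, and had the lowest 3 places in all 3 groups. When only exon bases of no other gene were counted, a choice made after the data were seen, *Cox11* rose to the first place with 16.8 CPM per kb and *Cox16* was last with 2.54. On that scale *Cox16* (1.76 to 3.21 CPM per kb over the libraries) overlapped with *Cox19* (2.02 to 3.78), so their order is not firm. *Cox16* thus had the strongest of the 6 peaks with a coverage value and, per kb of all exons, the lowest level of the 9.

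**Figure D3:**
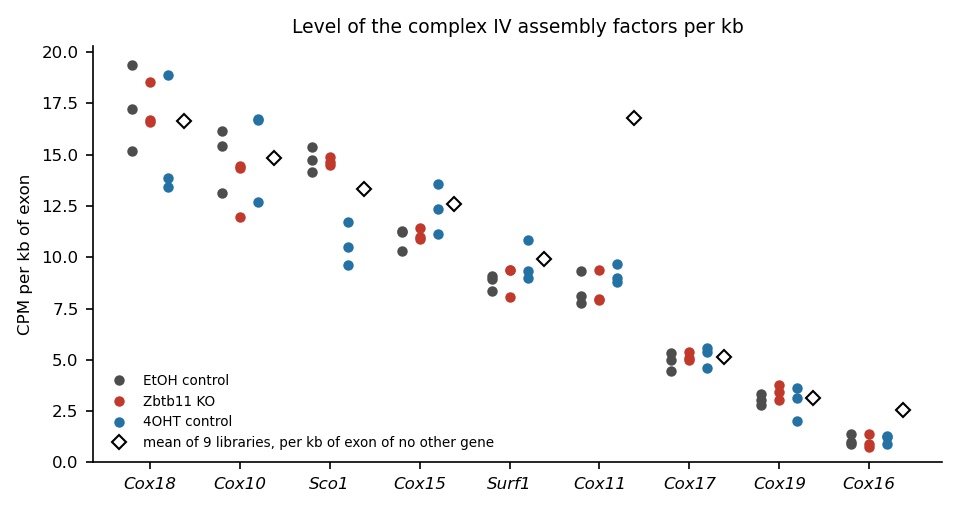
Level of each assembly factor in CPM per kb of exon. Points are the 3 libraries of each group and open diamonds are means of the 9 libraries per kb of exon that no other gene covers. The 6 genes on the left overlap with their neighbours, while *Cox17*, *Cox19* and *Cox16* step down without overlap to 1.08 CPM per kb of all exons, and *Cox11* has the widest gap between points and diamond.

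The comparison of *Zbtb11* KO cells with the EtOH control is made within the same line. These groups differ in Zbtb11, but also in treatment and Cre activity, so it does not test loss of Zbtb11 alone. None of the 9 assembly factors was DE, 0 of 9 against 0.899% of all tested genes (129 of 14346). All 9 adjusted p values were 1 by edgeR's quasi-likelihood test, 0 of 9 had an unadjusted p under 0.05, and DESeq2 also called 0. The log2 fold changes ran from -0.13 for *Cox10* to 0.16 for *Cox19*, with a median of 0.0009 beside -0.0006 over all genes.

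The copper chaperones showed this closely. *Sco1* had 55.6, 57.8 and 60.3 CPM in the EtOH control and 56.9, 58.3 and 57.5 CPM in *Zbtb11* KO cells, a log2 fold change of -0.008 with a 95% interval of -0.20 to 0.19. The groups overlap entirely, although the *Sco1* promoter peak was among the stronger ones. *Cox17* had 29.7, 31.9 and 26.5 CPM against 29.9, 30.4 and 32 CPM, a log2 fold change of 0.07 (-0.17 to 0.30). *Cox11*, which supplies copper to the subunit encoded by *mt-Co1*, had 11.1, 13.3 and 11.6 CPM against 11.3, 11.3 and 13.4 CPM, a log2 fold change of 0.0009 (-0.28 to 0.28). *Cox19*, a partner of Cox11 that carries disulphide bonds, had the largest value, 0.16, but an interval of -0.29 to 0.61. Its CPM were 9.96, 11.7 and 10.7 in the control and 10.7, 12.1 and 13.4 in the KO, with overlapping groups. Each KO library was above the control library with its number, and with the replicate number as a block the log2 fold change was 0.16 (adjusted p = 0.722, edgeR).

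The haem *a* enzymes gave the same picture. *Cox10* had 39.9, 46.8 and 49.0 CPM in the EtOH control and 36.3, 43.8 and 43.5 CPM in the KO, a log2 fold change of -0.13 (-0.44 to 0.17). Here each KO library was below the control library of the same number. With the replicate number as a block the unadjusted p was 0.0379 and the adjusted p 0.450 (edgeR). In that fit 1 of 9 members and 1423 of all 14346 tested genes had an unadjusted p under 0.05. The share of all tested genes whose pairs all went in the same direction was not counted, for *Cox10* or *Cox19*. *Cox15* had 50.6, 55.3 and 55.0 CPM against 56.1, 53.4 and 53.9 CPM, a log2 fold change of 0.02 (-0.18 to 0.22). *Surf1*, thought to act in placing haem *a* in the core and mutated in Leigh syndrome, had 15.4, 14.4 and 15.6 CPM against 16.1, 13.9 and 16.1 CPM. Its log2 fold change was 0.02 (-0.24 to 0.28).

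*Cox18* and *Cox16* act on the *mt-Co2* product. *Cox18* had 38.9, 34.6 and 30.5 CPM in the control and 37.2, 33.6 and 33.3 CPM in the KO, with a log2 fold change of -0.0005 (-0.33 to 0.33). *Cox16* had 3.75, 5.13 and 3.33 CPM against 3.38, 2.81 and 5.12 CPM, and its log2 fold change of -0.11 had the widest interval, -0.72 to 0.49. Its lowest KO library was below all 3 control libraries and its highest was level with the highest control library. A fall of 1 on the log2 scale was outside the interval of *Cox16* and of the other 8 genes, whereas a fall of 0.5 was inside that of *Cox16* alone. Groups that did not overlap occurred in 0 of 9 members and in 7.21% of all tested genes.

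**Figure D4:**
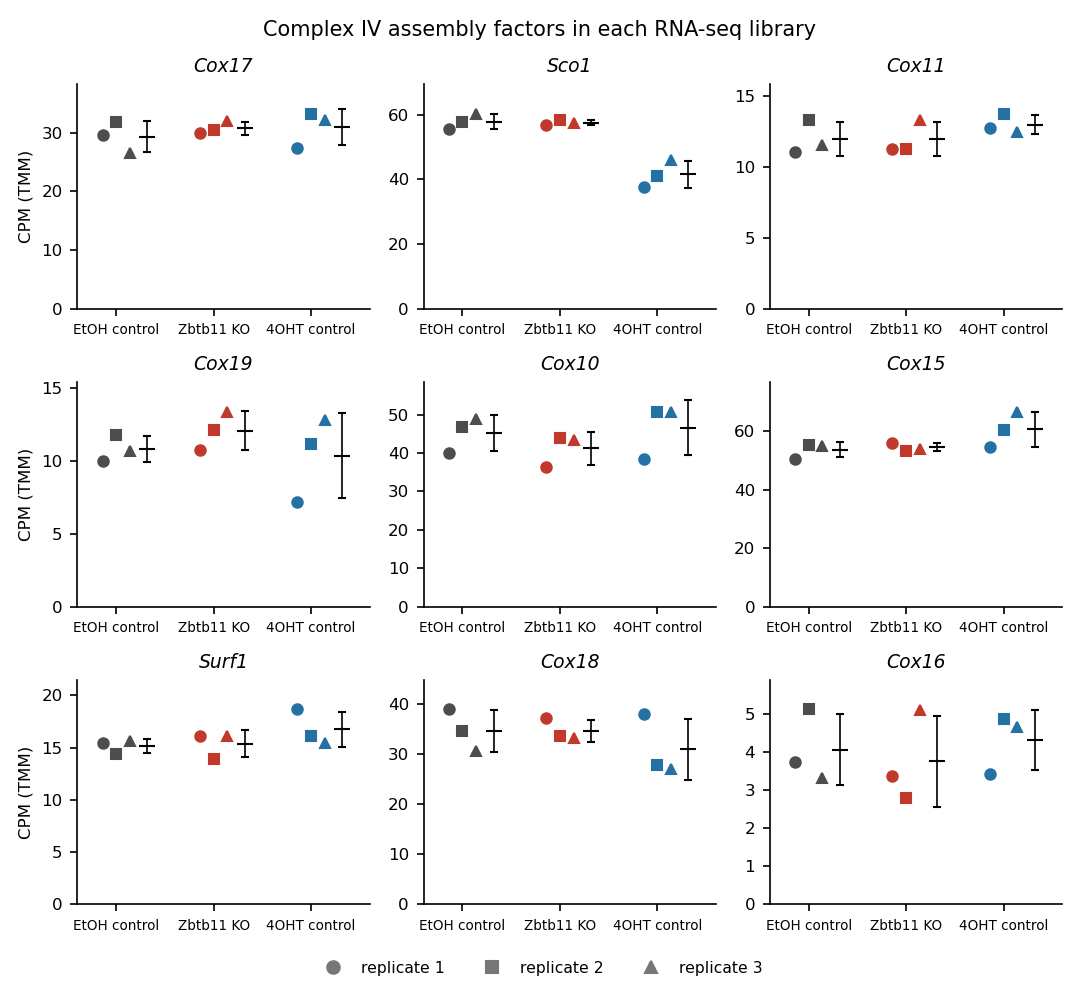
CPM (normalised by TMM, axes from 0) of the 9 measured assembly factors in each RNA-seq library. Symbols give the replicate number, and black bars the mean ± SD of 3 libraries. *Sco1* in the 4OHT control (37.7 to 45.9 CPM) is the only group that does not overlap with another group of the same gene, a gap that 21.7% (against the EtOH control) and 22.9% (against the KO) of tested genes show.

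With the replicate number as a block 0 of 9 assembly factors were DE, while the share over all genes rose to 2.25%. Without replicate 1 it was 0 of 9 against 1.50% of genes, and with replicates 2 and 3 blocked 0 of 9 against 2.27%. DESeq2, the other filters, library sizes without TMM, the fit on these 2 groups alone and the fits without replicate 2 or 3 also called 0 of 9.

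Calls were next set against the peaks. Of the 817 tested genes with a Zbtb11-high peak at the promoter, 109 were DE in *Zbtb11* KO cells, 101 of them lower (13.3% called), against 0.187% of the 3209 genes with another high-confidence promoter peak and 0.136% of the 10320 with none. *Cox16* belongs to the first of these classes, *Cox10*, *Cox15*, *Cox17*, *Cox18* and *Sco1* to the second, and *Cox11*, *Cox19* and *Surf1* to the third. The classes use only the coverage table, so the third can hold genes with peaks in the full lists. *Surf1* had a promoter peak in both of those lists and *Cox19* in that of the Zbtb11 antibody.

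The related genes around complex IV were taken from lists of subunits, other assembly factors, copper transport and haem synthesis. Among 19 measured other factors for assembly and translation of complex IV, 1 was lower and 0 higher in the *Zbtb11* KO. This was *Taco1*, a translational activator of *mt-Co1*, with 15.1, 21.1 and 18.1 CPM in the EtOH control and 3.61, 6.01 and 4.66 CPM in the KO, without overlap. Its log2 fold change was -1.92 (95% interval -2.43 to -1.41, adjusted p = 0.00251, edgeR), and in the 4OHT control it had 15.1 to 22.9 CPM. Without replicate 2 its log2 fold change was -2.0 and the adjusted p 0.143, and without replicate 3 -1.91 and 0.178, in fits that called 13 and 21 genes in all. The *Taco1* promoter had a Zbtb11-high peak of 708 ± 236 (SD, n = 4), centred 33 bases upstream of the start. The *Cox16* and *Taco1* peaks overlapped in coverage between libraries (440 to 678 against 508 to 1002), while the expression of only *Taco1* passed the test. Whether the changes of these 2 genes differ was not tested.

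None of the 15 measured nuclear-encoded complex IV subunits was DE, and the same held for 9 genes of copper transport and 14 of haem synthesis and haem *a* supply. Their medians were -0.002, 0.03 and 0.04 on the log2 scale, beside -0.05 for the other assembly and translation factors and -0.0006 for all tested genes. Of the mitochondrial subunits *mt-Co1* had 5482, 5216 and 5857 CPM in the EtOH control, 5123, 5319 and 3572 CPM in the KO and 4661, 6495 and 5769 CPM in the 4OHT control. The third KO library was the lowest of the 9. The log2 fold change from EtOH control to KO was -0.24 (-0.61 to 0.13), and ranged from -0.035 without replicate 3 to -0.38 without replicate 2. With the replicate block it was -0.25, with an unadjusted p of 0.0375 and an adjusted p of 0.448 by edgeR. In *Zbtb11* KO versus 4OHT control it did not pass the test (-0.27, adjusted p = 0.437, edgeR), nor with the block on all replicates. Without replicate 1 it was called lower (-0.47, adjusted p = 0.0480, edgeR), where 18.7% of all tested genes were called. With the block on replicates 2 and 3 it was also lower (-0.48, adjusted p = 0.00299, edgeR), where 29.5% were called. *mt-Co2* and *mt-Co3* had at most 3 and 2 reads in a library and were not tested. The reason for these low counts beside those of *mt-Co1* is not known, so they are not read as expression. For comparison, of 13 complex I assembly factors 1 was lower, *Ndufaf1*, with a log2 fold change of -2.0 (-2.34 to -1.66, adjusted p = 0.000177) and also a Zbtb11-high promoter peak of 697 ± 193. Its adjusted p was 0.0655 without replicate 2 and 0.0568 without replicate 3 (edgeR).

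The 4OHT control was also compared with the EtOH control, from which it differs in line as well as in 4OHT, so neither is checked alone. Here 1 of 9 assembly factors was DE, against 4.06% of all tested genes. This was *Sco1*, which had 37.7, 41.1 and 45.9 CPM in the 4OHT control against 55.6, 57.8 and 60.3 CPM in the EtOH control. The highest 4OHT control library was below the lowest EtOH control library, and such a lack of overlap was found in 1 of 9 members and in 21.7% of tested genes. The mean was 41.6 ± 4.11 against 57.9 ± 2.35 CPM (SD, n = 3), and the log2 fold change -0.48 (standard error 0.09, 95% interval -0.67 to -0.28, adjusted p = 0.0199, edgeR), or 0.719 of the control level. The other 8 genes had log2 fold changes from -0.17 (*Cox18*) to 0.18 (*Cox15*), with overlapping groups.

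In the comparison of *Zbtb11* KO cells with the 4OHT control, which received the same 4OHT, 1 of 9 assembly factors was again DE, against 6.45% of tested genes. *Sco1* was higher in the KO (mean 57.6 ± 0.697 CPM), by 0.47 on the log2 scale (standard error 0.09, 0.27 to 0.66, adjusted p = 0.0135). Here too the groups did not overlap in 1 of 9 members, and in 22.9% of tested genes. This comparison shares the 4OHT control libraries with the previous one, so it is no separate evidence. Thus *Sco1* was at 55.6 to 60.3 CPM in all 6 libraries of the *Zbtb11*lox/lox line, with and without 4OHT, and at 37.7 to 45.9 CPM in the 3 libraries of the *Zbtb11*WT/WT line. Its partner *2310004I24Rik* had 17.4, 20.2 and 17.3 CPM in the 4OHT control and 21.2, 22.3 and 23.2 CPM in the EtOH control, a log2 fold change of -0.28 that did not pass the test (adjusted p = 0.197, edgeR).

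These 2 *Sco1* calls depended on the replicates. Without replicate 2 the adjusted p was 0.587 and 0.438, and without replicate 3 it was 0.277 and 0.147, with log2 fold changes of -0.47 and 0.45, and of -0.52 and 0.55. The fits without replicate 2 called 13 and 82 genes in all and those without replicate 3 called 24 and 114. With only the EtOH and 4OHT controls in the fit the adjusted p of *Sco1* was 0.0805. Without replicate 1, which stood apart, it was 0.00306 and 0.00355, with log2 fold changes of -0.44 and 0.41.

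With the replicate number as a block *Sco1* had adjusted p values of 6.02e-06 and 5.66e-06, and further small differences passed the test in the comparisons with the 4OHT control, where the block raised the calls over all genes steeply. Against the EtOH control 2 of 9 members were then called, where 33.6% of all genes were, as *Cox15* was higher in the 4OHT control by 0.18 (adjusted p = 0.0371). Against the KO 2 of 9 were called, where 34.9% of all genes were, as *Cox10* was lower in the KO than in the 4OHT control (-0.18, adjusted p = 0.0280). The share of members called was below that of all genes in both.

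Fits on replicates 2 and 3 gave the following. Between the 4OHT and the EtOH control 1 of 9 members was called without a block (17.1% of genes), and 3 of 9 with it (27.6%), *Sco1*, *Cox15* (0.21) and *Cox18* (-0.24). Between *Zbtb11* KO and the 4OHT control 2 of 9 were called without a block (18.7% of genes), *Sco1* and *Cox15* (-0.25, adjusted p = 0.0336). With the block 4 of 9 were called (29.5%), *Sco1*, *Cox15* (-0.25), *Cox10* (-0.22) and *Cox18* (0.28). These differences of *Cox10*, *Cox15* and *Cox18* were smaller than that of *Sco1* and passed the test only in some of the fits.

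**Figure D5:**
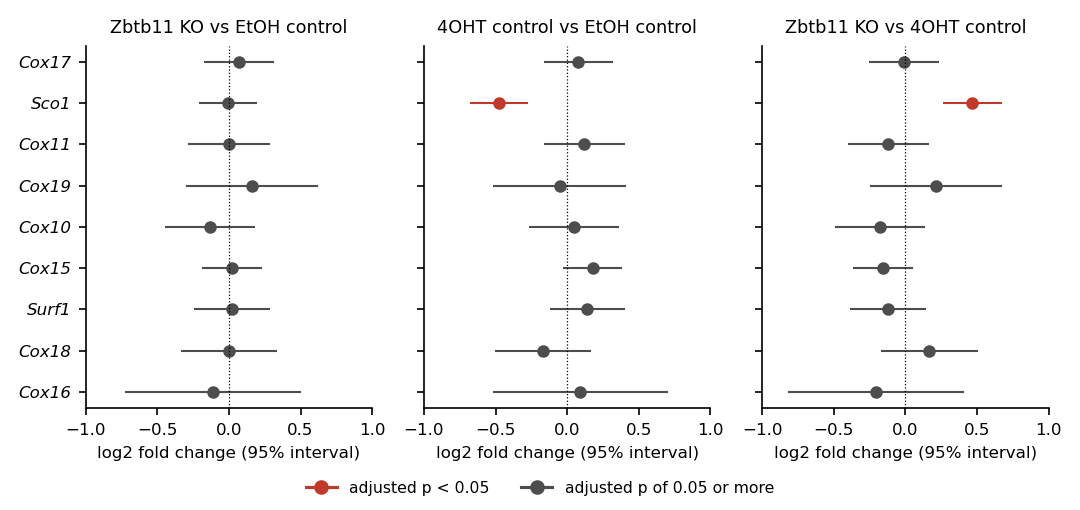
Log2 fold change and 95% interval of each assembly factor in the 3 comparisons, from the fit over all 9 libraries without a block. Red marks an adjusted p under 0.05 (edgeR), which only *Sco1* has, at -0.48 and 0.47 in the comparisons that involve the 4OHT control. In *Zbtb11* KO versus EtOH control every interval includes 0.

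Among all genes, those whose log2 CPM followed the mean of the assembly factors' z scores over the 9 libraries most closely were *Adat3* (Pearson's r = 0.931), *Mum1* (0.908), *Hnrnpul2* (0.901), *SNORD16* (0.897) and *Znrf2* (0.893). These values are descriptions across 9 libraries that share replicate numbers. The assembly factors themselves did not vary as a unit. The correlation of each with the mean of the others ran from -0.73 for *Cox18* and -0.42 for *Surf1* to 0.87 for *Cox16*, and *Cox18* is the gene that was highest in replicate 1 of every group.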

How the data were processed

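The counts per gene were deposited by the authors and are not normalised. TrimGalore and PRINSEQ were used for trimming, STAR for alignment and HTSeq for counting, and the libraries were directional. Genes wholly under exons of the other strand had no reads, as counting without strand gives. Reads outside genes made up 25.3 to 31.6% of a library and ambiguous reads 0.790 to 0.905%. The coverage signal of peaks is as deposited, made by the authors on mm9 with Bowtie 1.1.2, Picard, MACS2 within the IDR pipeline and DiffBind. There was 1 peak list per ChIP. The input libraries were not analysed here.

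edgeR 4.0.16 in R 4.3.3 was run on the counts (TMM, 3 groups in 1 fit, two-sided quasi-likelihood *F* test). Genes above 1 CPM in 3 or more libraries entered the fit, and Benjamini-Hochberg adjustment covered all 14346 of them, with a threshold of 0.05. Alternatives were DESeq2 1.42.0, library sizes without TMM, other filters, a replicate block, each replicate left out, only the compared groups, and a threshold of 0.01. After subtraction of group means, libraries with the same replicate number correlated at 0.416 to 0.812 in all 9 pairs. Libraries with different numbers correlated at -0.745 to 0.517, so the ranges overlap. Replicate 2 of the EtOH control correlated at 0.517 with replicate 3 of the 4OHT control and at 0.416 with its replicate 2. The numbers were taken to pair the samples, but for replicates 2 and 3 this pairing is uncertain. Blocked values are given where they change a call. Simulated data for *Zbtb11* KO versus EtOH control (14346 genes) served as a test, in which 96 of 100 genes with a true log2 fold change of 1 and 99 of 100 with one of 2 were recovered, beside 6 false calls. The simulated counts had the same dispersion in every gene and no shift of replicate 1. They check the code and do not give the recovery in the real libraries.

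Sequences were read from mm9 with pysam 0.24.0 and copies were searched with blastn. The genes and lists were chosen with earlier results of these data known. Genes named are the members, genes that overlap them or start within 1 kb on the opposite strand, list genes past the threshold in *Zbtb11* KO versus EtOH control, and the 5 genes closest to the members in pattern. Of 89 list entries, 88 were matched to a gene (*Pet117* was not). Samples were grouped by their labels.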

Additional observations from a re-analysis of the deposited data

How the results depend on the processing

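The number of DE assembly factors in *Zbtb11* KO versus EtOH control was 0 under every alternative run. In 4OHT control versus EtOH control it was 1, and became 2 with the replicate block, 3 with the block on replicates 2 and 3, 0 with only the compared groups or a threshold of 0.01, and 0 to 1 when 1 replicate was left out. In *Zbtb11* KO versus 4OHT control it was 1, and became 2 with the block, 4 with the block on replicates 2 and 3, 0 at a threshold of 0.01, and 0 to 2 when 1 replicate was left out. In *Zbtb11* KO versus EtOH control the number of DE genes in the other lists was 2 with and without the block, 3 with the block on replicates 2 and 3 (*4930455C21Rik* of the complex I list added, named after its value was seen, 0.32, adjusted p = 0.0459, edgeR), and 0 to 2 when 1 replicate was left out. The cause of these changes was not tested, and fits without a replicate have fewer libraries.

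Of the log2 fold changes of single members under the alternatives, 232 kept direction and call, 8 gained and 5 lost a call, and 25 changed sign, none of which was called under either setting. In *Zbtb11* KO versus EtOH control, *Cox18* was at 0.035 with library sizes without TMM, 0.0038 without a filter, 0.0015 with edgeR's own filter and 0.0044 with the block, and *Sco1* was at 0.030 without TMM. With the block on replicates 2 and 3, *Surf1* was at -0.0044, *Cox11* at -0.015, *Cox18* at 0.036 and *Cox15* at -0.042. When 1 replicate was left out, *Surf1* ranged from -0.0033 to 0.053, *Cox11* from -0.11 to 0.12, *Cox18* from -0.056 to 0.035, *Cox15* from -0.041 to 0.057, *Cox17* from -0.029 to 0.14, *Sco1* from -0.029 to 0.023 and *Cox16* from -0.53 to 0.26. In 4OHT control versus EtOH control *Cox19* was at 0.093 with the block on replicates 2 and 3. It ranged from -0.24 to 0.096 when 1 replicate was left out, *Cox17* from -0.019 to 0.17 and *Cox16* from -0.093 to 0.20. In *Zbtb11* KO versus 4OHT control *Cox17* was at 0.021 without TMM. It ranged from -0.072 to 0.054 when 1 replicate was left out, and *Cox16* from -0.43 to 0.064.

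The number of assembly factors with a promoter peak was 6 to 9 under other windows and peak lists. The median coverage of their 6 high-confidence peaks was 143 with the Zbtb11 antibody and 132 in the FLAG-Zbtb11 libraries. Of the 9 genes, 9 kept their place by level per kb without TMM, 5 with the longest transcript, 5 without replicate 1 and 3 when only exon bases of no other gene were counted. That count of bases, and the use of the FLAG-Zbtb11 mean for the Zbtb11-high limit, were chosen after seeing the data. *Cox16* had the fewest reads (50 to 120) and the widest interval, with KO libraries of 2.81 to 5.12 CPM, and the part of counting error in it was not tested.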
